A study of Mus musculus with 8 samples.

Results

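Conventional CD4 T cells of the mouse liver were studied, taken here as cells with CD3 and Cd4 transcripts and without transcripts of Foxp3, CD8 or other lineages. A cell entered when it had more than 500 genes, under 25% of its unique molecular identifiers (UMIs, each counted as 1 captured mRNA) from mitochondrial genes, at least 2 UMIs over Cd3d, Cd3e and Cd3g, and at least 1 UMI of Cd4. It also had to have 0 UMIs of Cd8a, Cd8b1, Foxp3, Klrb1c, Ncr1, Trdc, Top2a, Cd79a, Csf1r and Siglech. This gate kept 941 of 80474 cells that passed the limits on genes and mitochondrial share, or 1.17%. The cells were thus chosen by the UMIs of these genes, and the levels of the 14 gate genes describe the gate and were not tested.

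CD4 T cells are helper cells: they recognise peptides on MHC class II and act mostly through cytokines and through membrane ligands such as CD40 ligand. After activation they gain costimulatory receptors and inhibitory receptors such as PD-1, and persistent antigen can keep the latter high. In the liver, conventional CD4 T cells lie beside CD8 T cells, regulatory T cells, gamma-delta T cells and natural killer T (NKT) cells, an innate-like lineage that can also carry CD4.

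The cells came from the livers of 8 wild-type C57BL/6 mice, with neither age nor sex given in the labels, each measured in 1 droplet library with the 10x Genomics 3' kit. The groups were 2 control mice on normal diet and water, 3 mice on a high-fat diet with fructose solution and intraperitoneal CCl4 (HFD+F+CCl4), and 3 mice on a western diet with fructose solution and the same CCl4 injections (WD+F+CCl4). Both treated groups were built as models of nonalcoholic steatohepatitis (NASH) with fibrosis and are together called NASH mice. CCl4 is itself a liver toxin, and no group received diet or CCl4 alone, so their parts in any NASH difference cannot be told apart.

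The gate gave 312 and 29 CD4 cells in control replicates 1 and 2, 21, 65 and 110 in HFD+F+CCl4 replicates 1 to 3, and 61, 94 and 249 in WD+F+CCl4 replicates 1 to 3. The libraries held 36699315 and 6135827 UMIs in the control mice, 49738207, 52880918 and 55186165 in the HFD+F+CCl4 mice, and 62694610, 46275590 and 64855024 in WD+F+CCl4 mice. Summed over the CD4 cells of a mouse, 1062917 and 51612 UMIs were available in the controls, 55101, 175071 and 336716 in the HFD+F+CCl4 mice, and 172716, 196808 and 524207 in WD+F+CCl4 mice. Control replicate 2 and HFD+F+CCl4 replicate 1 were therefore the thinnest: 1 UMI stood for 19.4 and 18.1 CPM (UMIs of a gene per 1000000 UMIs summed over the CD4 cells of that mouse), against 0.941 CPM in control replicate 1. Median UMIs per CD4 cell were 3003.5 and 1320 in the controls, 2364, 2641 and 2763 in the HFD+F+CCl4 mice, and 2567, 1993.5 and 1868 in WD+F+CCl4 mice.

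The markers of the label were present in all 8 mice. Cd3e lay between 543 and 1127 CPM and Cd4 between 380 and 834 CPM, as the gate required. Markers in common to T cells that the gate did not use were detected too, with Trbc2 (a constant region of the T cell receptor beta chain) the most abundant in each mouse, at 1066 to 2894 CPM, and Zbtb7b, the factor that sets the CD4 lineage, at 40.5 to 91.4 CPM. The limits of the gate mattered for Cd4 more than for CD3: 617 members had 1 Cd4 UMI and 324 had more, and 2753 cells met all other terms with 0 Cd4 UMIs, whereas 91 members had a summed CD3 count of 2 and 80 cells fell just outside with a count of 1. Of the members, 19 had at most 600 genes and 26 were marked as doublets. Of 79739 distinct barcode sequences, 732 (0.918%) occurred in more than 1 library; 19 CD4 cells had such a barcode, and 1 shared it with a CD4 cell of another library.

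Several libraries stood apart. In WD+F+CCl4 replicate 3, Trbc1 made up 3.93% of the UMIs of Trbc1 plus Trbc2 in CD4 cells, against 17.5% to 35.3% in the other 7 mice and 19.3% in the CD8 cells of the same mouse, and 15 of its 20 UMIs of beta variable segments were Trbv29. Ccl5, a chemokine of effector T cells, was at 15862 CPM in HFD+F+CCl4 replicate 1 and 21068 CPM in WD+F+CCl4 replicate 3, against 730 to 2937 CPM in the other 6. It was detected in 81.0% and 90.4% of the CD4 cells of these 2 mice, and in 7.43% and 10.9% of their cells without a CD3 UMI.

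The control libraries differed as a pair. The mitochondrial gene mt-Nd3 was at 3.10 and 4.52 CPM over the whole control libraries and at 521 to 1402 CPM in the NASH libraries, and the predicted gene Gm28438 was at 457 and 259 CPM against at most 1.38 CPM. The differences between control and NASH libraries of this kind and the difference in condition cannot be told apart.

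**Figure D1:**
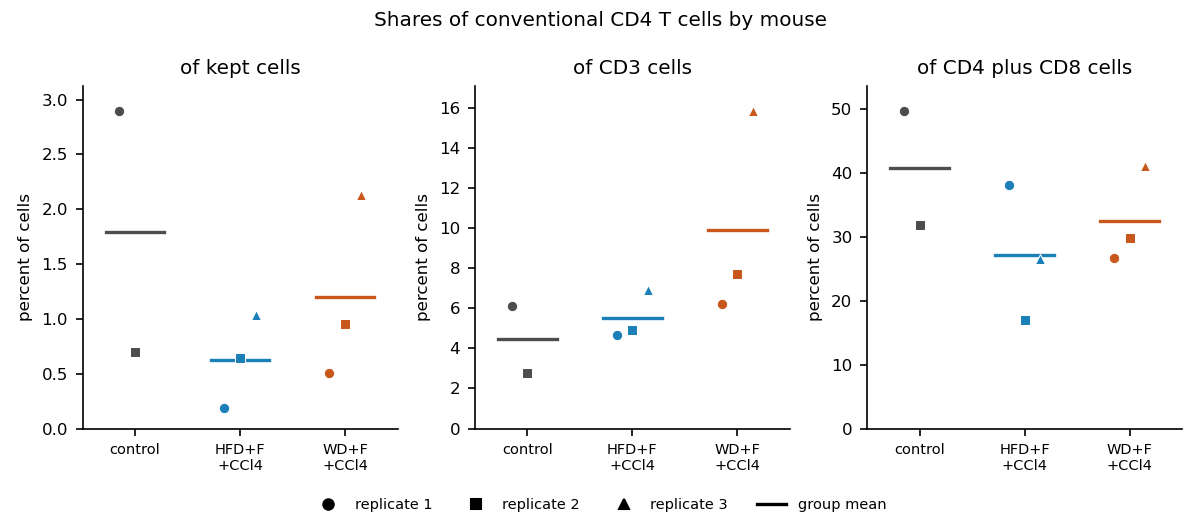
Share of conventional CD4 T cells per mouse, in percent, by group (one point per mouse, bar at the group mean), as shares of kept cells, of CD3 cells and of CD4 plus CD8 cells. The groups overlap in all 3 shares, and WD+F+CCl4 replicate 3 is the highest of the NASH mice at 15.8% of CD3 cells.

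The first question was whether the abundance of CD4 cells differed between groups. They made up 2.89% and 0.696% of kept cells in the control mice, 0.188%, 0.642% and 1.03% in the HFD+F+CCl4 mice, and 0.508%, 0.955% and 2.13% in WD+F+CCl4 mice. The control mice themselves spanned nearly the whole range. NASH mice had 0.908% ± 0.671 (SD, n = 6) and control mice 1.79% ± 1.55 (SD, n = 2), a difference within the spread between mice (exact two-sided permutation test, p = 0.250, 0.402 after Benjamini-Hochberg adjustment over 5 shares, of which 3 are reported here), where 2 mice against 6 allow a smallest p of 0.0357. Exact 95% binomial intervals, which cover counting error only, ran from 2.58% to 3.23% in control replicate 1 and from 0.466% to 0.998% in control replicate 2.

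Among CD3 cells, the CD4 share was 6.13% and 2.76% in the controls, 4.66%, 4.90% and 6.91% in the HFD+F+CCl4 mice, and 6.19%, 7.69% and 15.8% in WD+F+CCl4 mice (exact permutation test of NASH against control, p = 0.321, adjusted 0.402). Among CD4 plus CD8 cells it was 49.7% and 31.9%, then 38.2%, 16.9% and 26.5%, then 26.6%, 29.8% and 41.1% in the same order (p = 0.250, adjusted 0.402, exact permutation test). Neither share separated NASH from control mice, and the 2 models overlapped in both. With more than 1000 genes required per cell, each NASH mouse lay below both controls in the share of kept cells (0.716% against 2.84%) and of CD4 plus CD8 cells (27.2% against 43.8%). Each was at the smallest exact permutation p of 0.0357 and an adjusted p of 0.0536. The adjustment here covered the shares of kept cells, of CD3 cells and of CD4 plus CD8 cells alone. Control replicate 2 had 12 CD4 cells in this setting.

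CD4 cells were also divided by Cxcr6, a chemokine receptor that holds T cells in liver sinusoids. After each cell was thinned to 800 UMIs, a Cxcr6 UMI was found in 38.9% and 22.2% of CD4 cells in the controls, 9.52%, 27.7% and 23.6% in the HFD+F+CCl4 mice, and 18.0%, 22.3% and 20.9% in WD+F+CCl4 mice. These shares are given as a description, and the groups overlapped. Before thinning the share ran from 32.8% to 68.2%. In B cells and endothelial cells, which should lack it, the thinned Cxcr6 share was 2.12% and 3.51% in control replicate 1 and at most 0.268% in each NASH mouse, but 10.7% and 22.8% in control replicate 2, so that its CD4 value was not above that of endothelial cells. Median UMIs before thinning, over all mice, were 2476.5 in CD4 cells, 1837 in B cells and 3562.5 in endothelial cells.

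Comparing NASH with control mice, the expression of 132 of 4297 genes differed in CD4 cells (3.07%, edgeR quasi-likelihood test on UMIs summed per mouse, Benjamini-Hochberg adjusted p under 0.05), with 51 higher (1.19%) and 81 lower (1.89%). Among the genes that rose were the inhibitory receptors Pdcd1 and Lag3, the costimulatory receptor Tnfrsf4 and the small calcium-binding proteins S100a4 and S100a6, and among those that fell were Satb1 and Lef1 of naive T cells, Zbtb16, Klrd1 and Cd160 of innate-like cells, and Cxcr6. The median log2 fold change over all genes tested was -0.01. Here and below, leaving out a control mouse leaves 1 control, so that the spread comes from the NASH mice. A call lost in such a fit does not by itself show a smaller fold. Of the mice left out singly, control replicate 1, which held 312 of the 341 control CD4 cells, lowered the count of calls most. Without it 9 of 5295 genes passed, none of them a gene of the T cell lists, and of the 41 genes named here 36 could be tested, of which 6 kept their call and Lef1 changed direction. Without control replicate 2, 100 passed, 87 of them among the 132, and Junb, Lag3 and Tnfsf8 were among the calls that were lost.

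Of the 10 checkpoint genes fixed as a list, 7 were tested, 3 rose (Pdcd1, Lag3 and Tox), 1 fell (Cd160), and the median log2 fold change of the 7 was 2.26. The level summed over the 10 was 274 and 523 CPM in the control mice, 1198 and 1259 CPM in the 2 NASH mice with high Ccl5, and 300 to 691 CPM in the other 4. Without these 2 mice Pdcd1 and Tox kept their call (2.78, edgeR adjusted p = 0.000667, and 2.06, edgeR adjusted p = 7.83e-05), and Lag3 was too low to be tested. Pdcd1 encodes the inhibitory receptor PD-1 (chr1:94038305-94052553, minus strand, GRCm38 with GENCODE M21). Its level was 12.2 and 0 CPM in the control mice, 236, 183 and 80.2 CPM in the HFD+F+CCl4 mice, and 40.5, 71.1 and 258 CPM in the WD+F+CCl4 mice. Every NASH mouse lay above both controls, as was so for 7.24% of all genes tested. The log2 fold change was 3.57 ± 0.76 (SE, edgeR adjusted p = 0.0134).

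Tox, a nuclear factor of chronically stimulated T cells (chr4:6686353-6991557), was at 33.9 and 38.8 CPM in the control mice, 218, 166 and 178 CPM in the HFD+F+CCl4 mice, and 156, 96.5 and 420 CPM in the WD+F+CCl4 mice. The groups did not overlap, and the log2 fold change was 2.56 ± 0.53 (SE, edgeR adjusted p = 0.0126). Lag3, an inhibitory receptor for MHC class II (chr6:124904361-124911705), had 1 UMI in all control CD4 cells and 178 UMIs in those of NASH mice. Its level ran from 11.6 CPM in WD+F+CCl4 replicate 1 to 363 CPM in HFD+F+CCl4 replicate 1 (edgeR adjusted p = 0.0324), and the pooled ratio was 136, with a counting interval of 24.1 to 5394. The other checkpoint genes tested included Ctla4, at 0 to 14.1 CPM in the controls and 10.2 to 107 CPM in NASH mice, which did not pass (edgeR adjusted p = 0.111). Pdcd1, Lag3 and Tox also lay above both controls in 6 of 6 NASH mice in CD8 cells. Over all kept cells 3 of 6 NASH mice lay above for each, where CD3 cells were a smaller part in each NASH mouse than in either control. Here and below, the share of all genes with such a pattern in CD8 cells or over all kept cells was not determined. Such counts are therefore a description.

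Tnfrsf4 encodes OX40, a costimulatory receptor of activated CD4 T cells (chr4:156013843-156016612, plus strand). It was at 18.8 and 19.4 CPM in the control mice, 145, 297 and 282 CPM in the HFD+F+CCl4 mice, and 133, 96.5 and 160 CPM in the WD+F+CCl4 mice. Each NASH mouse lay above both controls, where the value of control replicate 2 is 1 UMI, and the log2 fold change was 3.24 ± 0.42 (SE, edgeR adjusted p = 0.000436, and 0.243 without control replicate 1). Tnfrsf4 was higher still in Foxp3 cells, as given below. In the CD4 cells, markers of regulatory T cells summed to 265 and 213 CPM in the controls and 274 to 594 CPM in NASH mice. Of 3 such markers tested, 0 passed (median log2 fold change 0.83), and the part of such cells in the rise of Tnfrsf4 was not tested. Tnfsf8, which encodes CD30 ligand (chr4:63831308-63861347, minus strand), was at 14.1 and 0 CPM in the control mice. It was at 54.4, 143 and 143 CPM in the HFD+F+CCl4 mice, and 185, 168 and 32.4 CPM in the WD+F+CCl4 mice. Its groups did not overlap either, although WD+F+CCl4 replicate 3 was low (log2 fold change 3.16 ± 0.71, SE, edgeR adjusted p = 0.0207).

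The promoters of 3 of these receptors and ligands that rose together are shown from RefSeq (GRCm38.p6, 250 bases before to 50 after the start, gene strand, 5′ to 3′), because activation signals in T cells act partly through NFAT and AP-1 sites. Of the 41 genes named in this comparison, 29 had an entry in the promoter table. The window given for Tnfrsf4 lies wholly upstream of the gene start in GENCODE M21, so the 2 annotations place its start differently. Capitals mark the match to the NFAT core TGGAAA, read on either strand.
Pdcd1, chr1:94052504-94052803, minus strand: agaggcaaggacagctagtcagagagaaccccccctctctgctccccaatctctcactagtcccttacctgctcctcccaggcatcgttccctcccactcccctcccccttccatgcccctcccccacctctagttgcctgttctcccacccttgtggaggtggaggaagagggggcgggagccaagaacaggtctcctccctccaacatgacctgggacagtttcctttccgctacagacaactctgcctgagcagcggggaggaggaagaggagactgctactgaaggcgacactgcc
Tnfrsf4, chr4:156013445-156013744, plus strand: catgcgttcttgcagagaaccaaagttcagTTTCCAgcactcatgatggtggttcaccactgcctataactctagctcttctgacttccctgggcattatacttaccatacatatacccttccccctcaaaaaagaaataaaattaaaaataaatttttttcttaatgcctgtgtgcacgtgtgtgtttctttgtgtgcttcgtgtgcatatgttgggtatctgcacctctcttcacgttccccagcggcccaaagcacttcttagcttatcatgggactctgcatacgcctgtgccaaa
Tnfsf8, chr4:63861235-63861534, minus strand: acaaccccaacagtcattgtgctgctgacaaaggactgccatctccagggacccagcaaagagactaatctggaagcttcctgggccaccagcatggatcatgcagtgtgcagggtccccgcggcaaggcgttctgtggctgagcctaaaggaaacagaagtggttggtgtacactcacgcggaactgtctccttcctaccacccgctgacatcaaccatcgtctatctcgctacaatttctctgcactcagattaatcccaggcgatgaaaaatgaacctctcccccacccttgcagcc
The NFAT core was found 1 time, in the Tnfrsf4 window on the reverse strand, and in 21.4% of 32851 promoters of this length. The AP-1 site TGANTCA, searched on both strands, was in none of the 3 windows and in 7.81% of all promoters. The windows differed in base composition, with 60.7% G and C for Pdcd1, 43.7% for Tnfrsf4 and 54.0% for Tnfsf8.

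Of 17 genes of activation and costimulation, all were tested, 3 rose (Tnfrsf4, S100a4 and S100a6), 2 fell (Cd40lg and Il2rb), and the median log2 fold change was 0.59. S100a4 and S100a6 are small calcium-binding proteins of effector and memory T cells. S100a4 was at 246 and 465 CPM in the control mice, 817, 1485 and 1310 CPM in the HFD+F+CCl4 mice, and 1488, 1296 and 1456 CPM in the WD+F+CCl4 mice (log2 fold change 2.04 ± 0.37, SE, edgeR adjusted p = 0.00498). S100a6 was at 451 and 504 CPM, then 1452, 2068 and 2245 CPM, then 2692, 2408 and 1736 CPM (2.19 ± 0.36, SE, edgeR adjusted p = 0.0027). Both had every NASH mouse above both controls, in CD8 cells as well, and over all kept cells 5 of 6 NASH mice lay above for each. Cd44 (log2 fold change -0.15, edgeR adjusted p = 0.882) and Icos (-0.08, edgeR adjusted p = 0.948) did not pass.

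Cd40lg, the ligand by which helper cells license B cells and dendritic cells, was at 130 and 136 CPM in the control mice, 54.4, 28.6 and 53.5 CPM in the HFD+F+CCl4 mice, and 69.5, 81.3 and 34.3 CPM in the WD+F+CCl4 mice. Each NASH mouse lay below both controls, as was so for 7.54% of genes tested, and the log2 fold change was -1.36 ± 0.35 (SE, edgeR adjusted p = 0.0474). Cd40lg did not pass when either control mouse, the second or the third HFD+F+CCl4 mouse, or the first WD+F+CCl4 mouse was left out (edgeR adjusted p up to 0.560). It was below both controls in 6 of 6 NASH mice in CD8 cells too, and over all kept cells, at 43.9 and 26.4 CPM against 0.631 to 2.38 CPM. Il2rb, the beta chain of the receptors for interleukins 2 and 15, was at 1020 and 1608 CPM in the controls and at 249 to 544 CPM in NASH mice (-1.60 ± 0.26, SE, edgeR adjusted p = 0.00245).

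Of 12 cytokine and fibrogenic ligand genes, 8 were tested and 2 rose, Tnfsf8 and Ltb. Ltb, which encodes lymphotoxin beta, was at 368 and 291 CPM in the control mice, 635, 880 and 1028 CPM in the HFD+F+CCl4 mice, and 1019, 782 and 639 CPM in the WD+F+CCl4 mice (log2 fold change 1.32 ± 0.33, SE, edgeR adjusted p = 0.0428). The Ltb call was lost on leaving out any of 6 of the 8 mice, that is each mouse other than HFD+F+CCl4 replicate 1 and WD+F+CCl4 replicate 3 (edgeR adjusted p up to 0.349), and held in 6 of 12 other settings. Tgfb1, the fibrogenic cytokine, was at 87.5 and 96.9 CPM in the controls and at 113 to 217 CPM in the NASH mice. All 6 lay above both controls, but the test was not passed (0.81 ± 0.29, SE, edgeR adjusted p = 0.204), nor by Tnf (0.94, edgeR adjusted p = 0.309). Il10 had 0 UMIs in the controls and reached 54.4 CPM in HFD+F+CCl4 replicate 1 and 66.8 CPM in WD+F+CCl4 replicate 3, the 2 mice with high Ccl5, and at most 2.97 CPM in the other NASH mice.

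**Figure D2:**
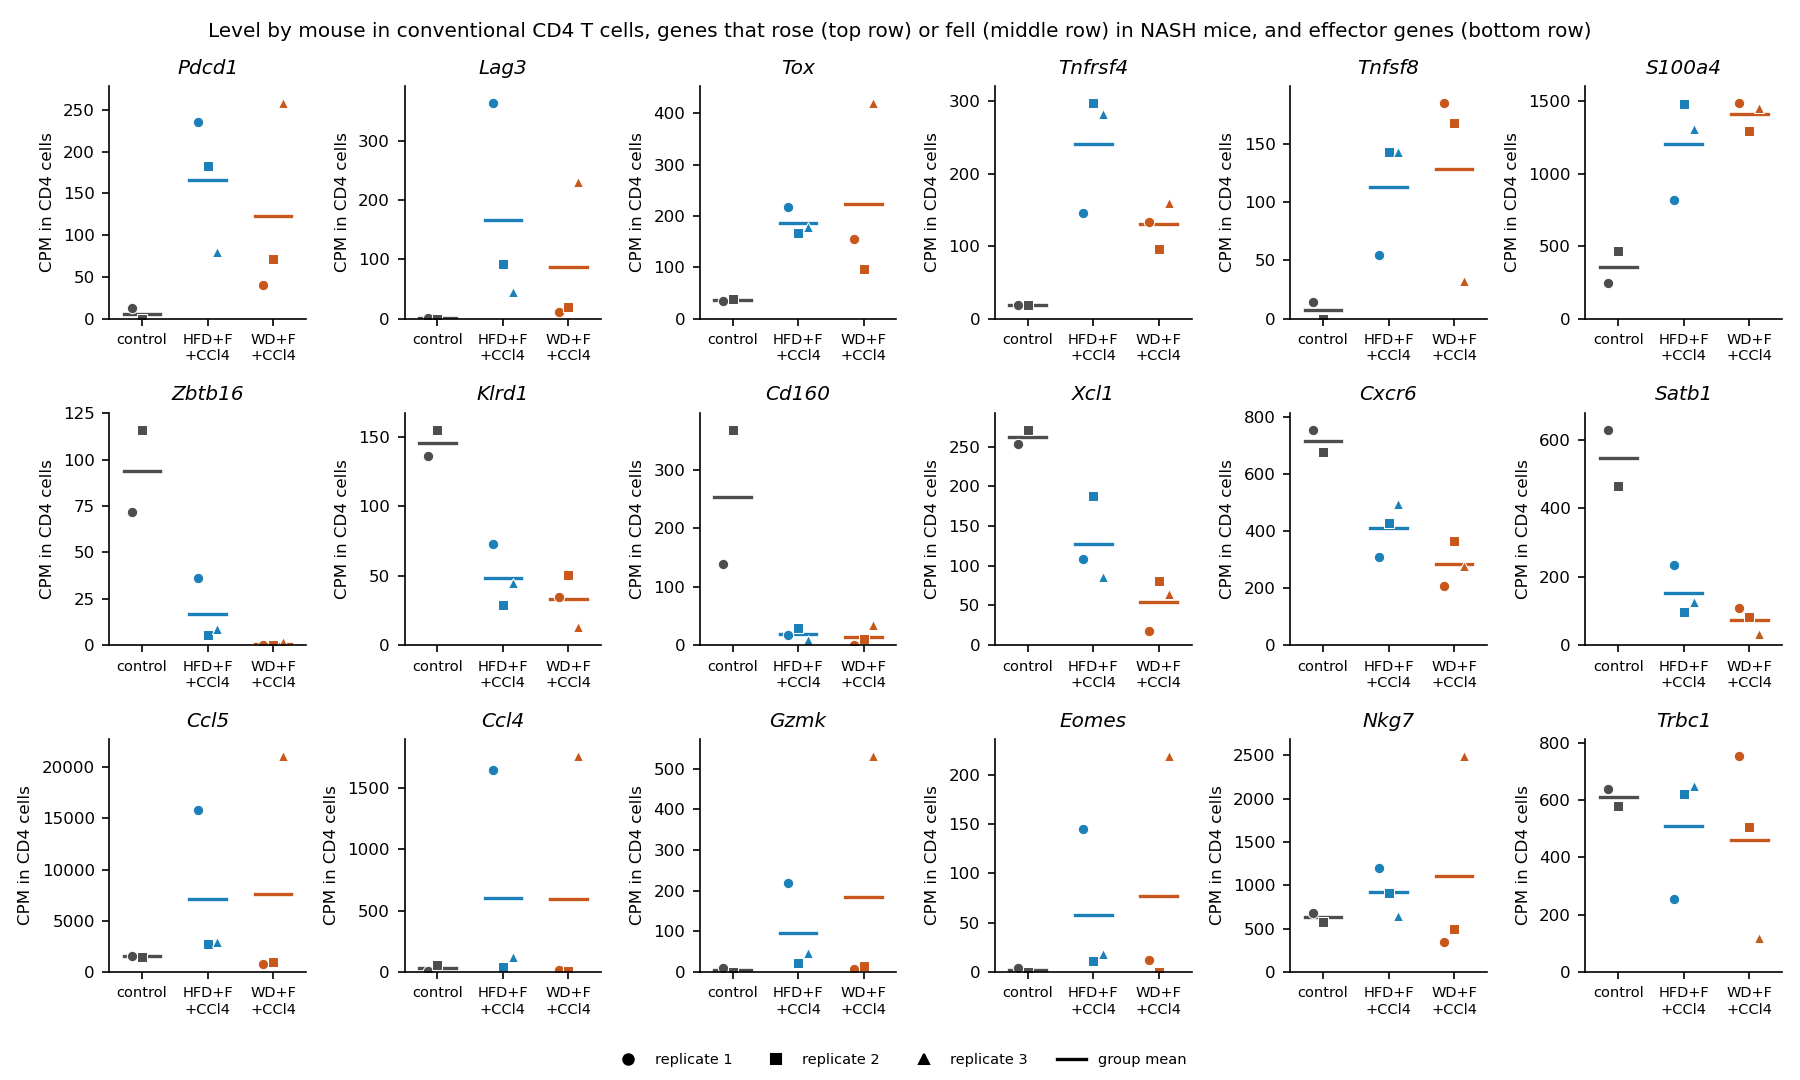
CPM in the CD4 cells of each mouse by group, 1 point per mouse and a bar at the group mean, for genes that rose in NASH (top row), fell (middle row) and for effector genes with Trbc1 (bottom row). In the top and middle rows the NASH points lie above or below both control points, while in the bottom row HFD+F+CCl4 replicate 1 and WD+F+CCl4 replicate 3 stand apart for Ccl5, at 15862 and 21068 CPM.

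Of 13 genes of the naive and recirculating state, 11 were tested, 0 rose, 2 fell (Satb1 and Lef1), and the median was -0.74. Satb1, a chromatin organiser of naive and memory T cells (chr17:51736187-51833290), was at 630 and 465 CPM in the control mice, 236, 97.1 and 125 CPM in the HFD+F+CCl4 mice, and 110, 81.3 and 32.4 CPM in the WD+F+CCl4 mice. The fall held in each NASH mouse, with a log2 fold change of -2.55 ± 0.34 (SE, edgeR adjusted p = 0.000532). Lef1, a partner of beta-catenin in naive T cells, was at 250 and 77.5 CPM in the controls, which differed widely, and at 45.8 to 116 CPM in NASH mice (log2 fold change -1.56 ± 0.37, SE, edgeR adjusted p = 0.0249), so that the groups overlapped. Without control replicate 1 the log2 fold change of Lef1 turned to 0.11 (edgeR adjusted p = 0.959), and the call was also lost without the second or the third HFD+F+CCl4 mouse or the second WD+F+CCl4 mouse. Ccr7 (edgeR adjusted p = 0.150) and Tcf7 (0.375, the same test) did not pass, with log2 fold changes of -1.48 and -0.74. Of the 11 tested, 3 had a log2 fold change above 0. Summed over the list, the level was 2983 and 1821 CPM in the control mice. It was 2178, 1822 and 2159 CPM in the HFD+F+CCl4 mice and 2548, 2246 and 952 CPM in the WD+F+CCl4 mice, so that the groups overlapped. In CD8 cells and over all kept cells, both Satb1 and Lef1 were below both controls in 6 of 6 NASH mice.

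Of 7 markers of NKT and NK cells, 2 (Klrb1c and Ncr1) were gate genes and 2 were abundant enough to be tested, Zbtb16 and Klrd1, both of which fell. Zbtb16, the factor that drives NKT development (chr9:48654297-48836222), was at 71.5 and 116 CPM in the control mice, 36.3, 5.71 and 8.91 CPM in the HFD+F+CCl4 mice, and 0, 0 and 1.91 CPM in the WD+F+CCl4 mice (log2 fold change -4.35 ± 0.83, SE, edgeR adjusted p = 0.00737). Klrd1, which encodes the receptor CD94, was at 136 and 155 CPM, then 72.6, 28.6 and 44.5 CPM, then 34.7, 50.8 and 13.4 CPM (-2.0 ± 0.39, SE, edgeR adjusted p = 0.00912). No NASH mouse reached the CPM of a control mouse for either gene. By the share of CD4 cells with a Zbtb16 UMI, however, the groups overlapped. This share was 9.52% in HFD+F+CCl4 replicate 1 and 6.90% in control replicate 2, at median depths of 2364 and 1320 UMIs. Control replicate 1 had 17.9%, and the remaining NASH mice had at most 2.73%. Summed over the list, the level was 245 and 368 CPM in the controls and 15.3 to 109 CPM in NASH mice, and Trav11, the alpha segment of invariant NKT receptors, had UMIs in control replicate 1 alone.

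Cd160, Xcl1 and Cxcr6 fell as well. Of 10 genes of liver residency, 7 were tested, 0 rose and Cxcr6 alone fell, with a median of 0.55. Cd160, a receptor of NK and innate-like T cells (chr3:96798763-96829351), was at 139 and 368 CPM in the control mice, 18.1, 28.6 and 8.91 CPM in the HFD+F+CCl4 mice, and 0, 10.2 and 34.3 CPM in the WD+F+CCl4 mice (log2 fold change -3.44 ± 0.52, SE, edgeR adjusted p = 0.0014). Xcl1, a chemokine that attracts cross-presenting dendritic cells, was at 253 and 271 CPM, then 109, 188 and 86.1 CPM, then 17.4, 81.3 and 64.9 CPM (-1.59 ± 0.34, SE, edgeR adjusted p = 0.0149). Cxcr6 (chr9:123806475-123811760) was at 755 and 678 CPM, then 309, 428 and 496 CPM, then 208, 366 and 277 CPM (-1.03 ± 0.27, SE, edgeR adjusted p = 0.0493). Cxcr6 did not pass when either control mouse, HFD+F+CCl4 replicate 2 or the first WD+F+CCl4 mouse was left out (edgeR adjusted p up to 0.538), and it passed in 4 of 11 other settings. All 3 had every NASH mouse below both controls. Hopx, of the T helper 1 list, fell as well (-1.55 ± 0.29, SE, edgeR adjusted p = 0.00708), while Tbx21, its lineage factor, did not pass (-1.18, edgeR adjusted p = 0.309).

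These falls came beside a difference in the libraries as a whole. CD3 cells numbered 5088 of 10788 and 1051 of 4168 kept cells in the controls. In the NASH mice they ran from 451 of 11179 to 1592 of 10654. Whole-library levels of T cell genes carry this difference in cell numbers, and its part in them was not tested. Over all kept cells, Cd160 was at 113 and 125 CPM in the control libraries and at 5.25 to 12.8 CPM in the NASH libraries, Cxcr6 at 384 and 301 against 11.2 to 50.7 CPM, Il2rb at 662 and 584 against 24.1 to 66.0 CPM, and Satb1 at 347 and 217 against 13.2 to 32.3 CPM. Cells without a CD3 UMI carried 1222 and 1321 CPM of Ccl5 in the controls and 71.5 to 208 CPM in NASH mice. The part of RNA from other cells, and of NKT cells without a Klrb1c UMI, in the fall of Cd160, Cxcr6, Il2rb, Satb1, Cd40lg, Xcl1, Klrd1 and Zbtb16 was not tested. Among CD4 cells with a Cxcr6 UMI, 54 of 2138 genes passed. Of the 132 genes, 88 could be tested there and 47 passed.

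Of 18 immediate early and stress genes, 16 were tested and Junb, a subunit of AP-1, rose, from 87.5 and 38.8 CPM in the control mice to 835, 274 and 347 CPM in the HFD+F+CCl4 mice and 289, 244 and 671 CPM in the WD+F+CCl4 mice (log2 fold change 2.44 ± 0.52, SE, edgeR adjusted p = 0.0143). The median of the 16 was 1.06, and 3.07% of all genes tested passed. Junb was above both controls in 6 of 6 NASH libraries over all kept cells too, at 112 and 160 CPM against 205 to 760 CPM, and the part of cell handling in it was not tested. Of 15 interferon genes, 11 were tested, 0 rose and 1 fell, with a median of -0.16. No gene of the T cell receptor signalling list (16 tested, median 0.25) passed, nor any of the Th2, Th17 and Tfh lists, of which 1, 2 and 3 genes were abundant enough to be tested.

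**Figure D3:**
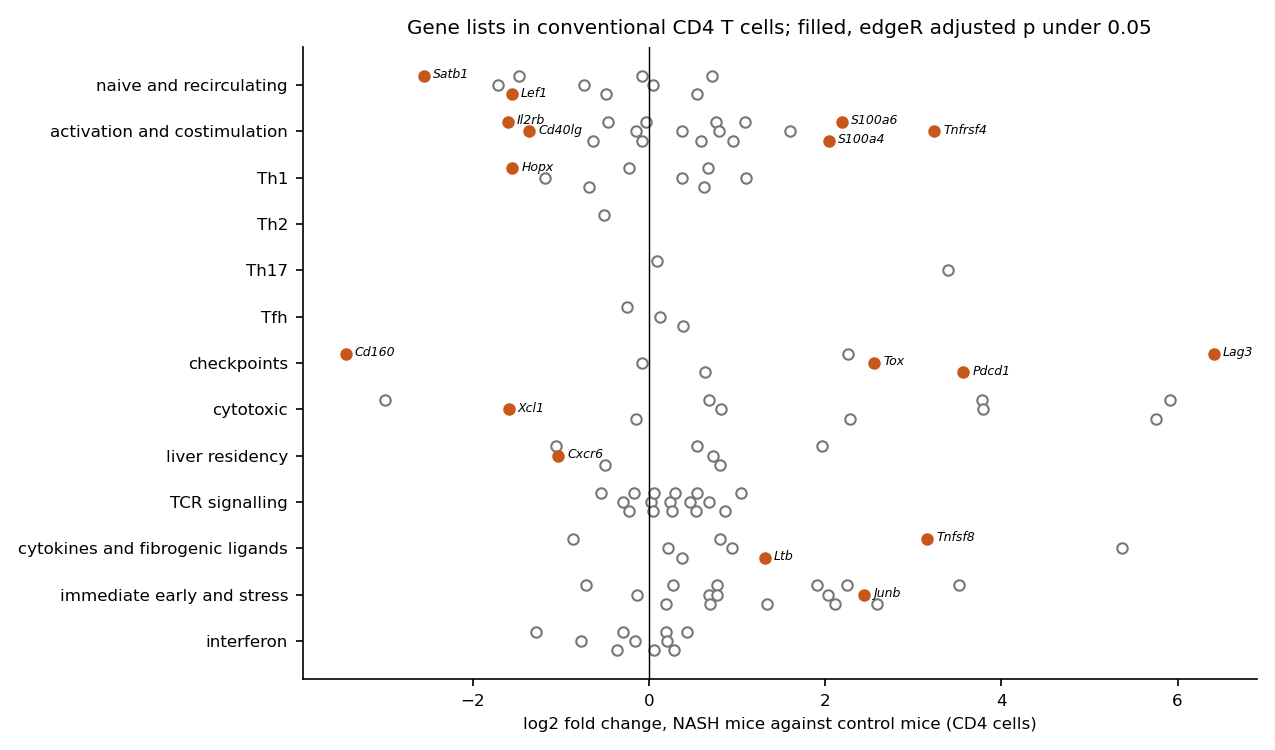
Log2 fold change of tested genes of the fixed lists for NASH against control in CD4 cells, 1 point per gene, with genes that passed the edgeR test at an adjusted p under 0.05 filled and named. Pdcd1, Tox and Lag3 lie to the right in the checkpoint list (median 2.26) and Satb1 and Lef1 to the left in the naive list (median -0.74).

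Of 12 cytotoxic effector genes, 10 were tested, 1 fell (Xcl1), 0 rose, and the median was 1.55. Their summed level was 2656 and 2596 CPM in the control mice, 19746, 4044 and 4027 CPM in the HFD+F+CCl4 mice, and 1181, 1626 and 26619 CPM in the WD+F+CCl4 mice, with Ccl5 the most abundant in each. HFD+F+CCl4 replicate 1 and WD+F+CCl4 replicate 3 were thus the 2 high mice, 1 from each model.

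Several members were high in the same 2 mice, but not the whole group: Gzma was at 0 in both, Prf1 and Crtam were at 0 in HFD+F+CCl4 replicate 1, and Xcl1 was below both controls in each. Ccl4, a chemokine of activated effector cells, was at 1652 and 1759 CPM in them and at 4.70 to 119 CPM in the other 6. Gzmk, granzyme K, was at 218 and 530 CPM against 0 to 47.5 CPM, and Eomes, the factor of cytotoxic T cells, at 145 and 219 CPM against 0 to 17.8 CPM. Gzmk was detected in 28.6% and 56.2% of the CD4 cells of these 2 mice, at median depths of 2364 and 1868 UMIs, and in 0.0474% and 0.224% of their cells without a CD3 UMI. None of Ccl5 (log2 fold change 2.28, edgeR adjusted p = 0.373), Ccl4 (5.92, 0.223), Gzmk (3.78, 0.223) and Eomes (3.79, 0.244, all by the same test) passed between NASH and control. Without both mice, 265 genes passed (112 higher and 153 lower), with 127 of the 132 among them.

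Markers of other cell types were found in the CD4 cells, and some of them differed between the groups. Of the endothelial (4 tested, median log2 fold change -1.38), erythroid (4, 1.88) and neutrophil genes (2, 0.30), 0 passed. The summed levels of these 3 lists overlapped between control and NASH mice. The 10 hepatocyte genes summed to 3176 and 5638 CPM in the control mice, 2105, 1645 and 140 CPM in the HFD+F+CCl4 mice, and 92.6, 66.1 and 410 CPM in the WD+F+CCl4 mice. All 10 were tested and 6 fell, with a median of -3.31. The most abundant was Alb, serum albumin, at 1181 and 1821 CPM in the controls and at 0 to 697 CPM in NASH mice (log2 fold change -3.32 ± 0.63, SE, edgeR adjusted p = 0.00768). Mup3, a major urinary protein, was at 396 and 523 CPM and at 0 to 36.3 CPM (-6.19 ± 0.51, SE, edgeR adjusted p = 3.41e-06). Over all kept cells Alb was at 1823 and 1895 CPM in the controls and 42.3 to 664 CPM in NASH mice, and Mug1, Serpina3k, Serpina1c, Cyp2e1, Apoh and Fga, hepatocyte genes among the largest falls, were also below both controls in 6 of 6 NASH mice in CD8 cells.

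Of the 10 myeloid genes, 7 were tested and 3 rose, the complement genes C1qa, C1qb and C1qc, which tissue macrophages make. Summed over the list, the level was 692 and 2248 CPM in the controls, 3230, 1508 and 1022 CPM in the HFD+F+CCl4 mice, and 1065, 1113 and 1507 CPM in the WD+F+CCl4 mice, with Csf1r at 0 by the gate and Lyz2 or Cst3 the most abundant. C1qc had 0 UMIs in the control CD4 cells and was at 17.4 to 381 CPM in NASH mice, at least 32.6-fold higher when the control floor is taken as 3 UMIs over the group. C1qb was higher over all kept cells too, at 15.8 and 10.9 CPM in the controls and 790 to 2031 CPM in NASH mice. Lilr4b, a receptor of myeloid cells, had 0 UMIs in control CD4 cells and was at least 24.4-fold higher in NASH mice, while over all kept cells it was at 12.3 and 25.3 CPM in the controls and 97.6 to 122 CPM in NASH mice.

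B cell genes summed to 567 and 3023 CPM in the controls and 101 to 371 CPM in NASH mice, with Igkc, the kappa light chain, falling (log2 fold change -3.85 ± 0.48, SE, edgeR adjusted p = 0.000332) and Ms4a1 at 0 in each NASH mouse. Ccr9, on the list of plasmacytoid dendritic cells, fell from 119 and 349 CPM to 0 to 28.6 CPM (-3.37 ± 0.49, SE, edgeR adjusted p = 0.000953), and over all kept cells it was at 119 and 201 CPM against 2.66 to 39.0 CPM. Of the 941 CD4 cells, 775 had at least 2 myeloid or hepatocyte UMIs. Without these cells 1 control mouse and 4 NASH mice had at least 20 cells, and 15 of 1749 genes passed. Of the 132, 64 could be tested and 7 kept their call (Tox, Satb1, Capg, Odc1, Gm10076, Gm28438 and mt-Nd3), of which mt-Nd3 and Gm28438, as given above, and Gm10076 (254 and 108 CPM in the controls against 710 to 1568 CPM) also differed between the whole libraries, as did Satb1 over all kept cells. With 1 control mouse of 22 cells and 1 HFD+F+CCl4 mouse left, the spread came from the 3 WD+F+CCl4 mice, and the lone control is assumed to vary like them. The part of free RNA in the calls was not tested.

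**Figure D4:**
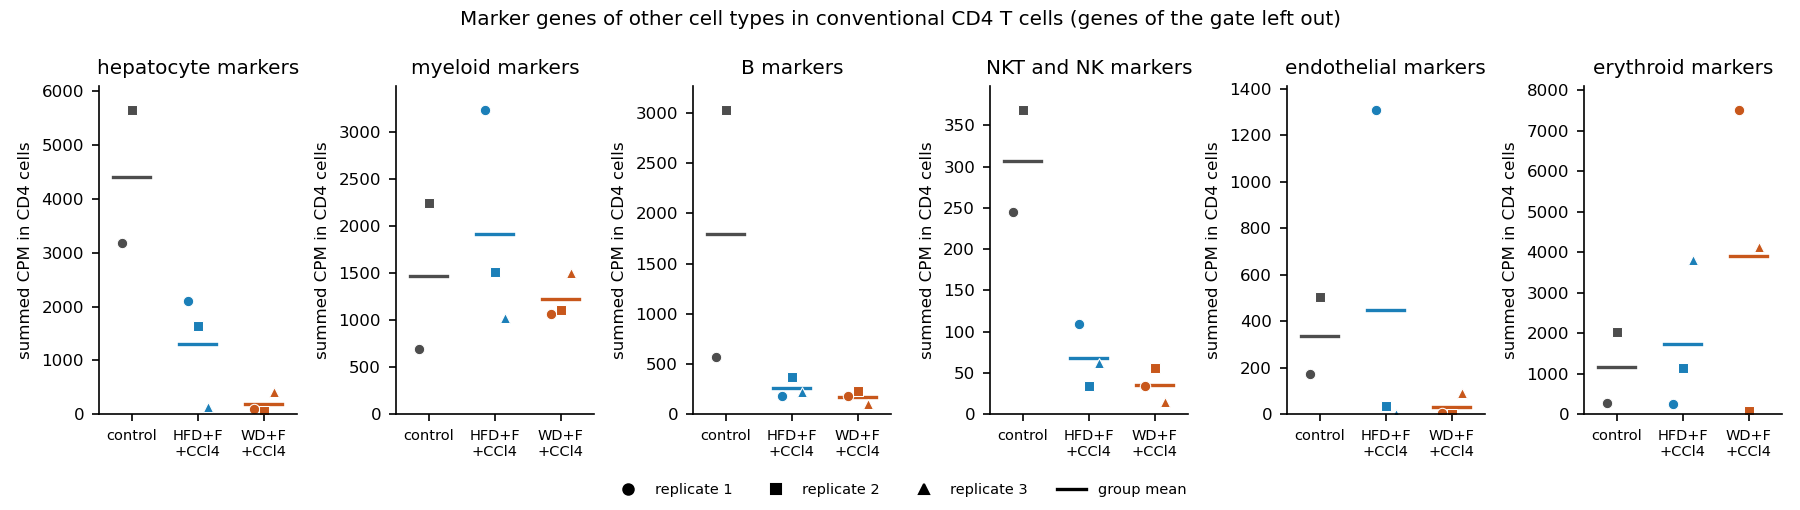
Summed CPM of the marker lists of other cell types in the CD4 cells of each mouse, by group on linear axes, 1 point per mouse and a bar at the group mean, with gate genes left out. Hepatocyte markers are highest in the 2 control mice (3176 and 5638 CPM) and endothelial markers in HFD+F+CCl4 replicate 1 (1307 CPM).

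Each model was next compared with control on its own, and both comparisons share the 2 control mice. HFD+F+CCl4 mice differed in 48 of 4297 genes (1.12%, edgeR adjusted p under 0.05), 26 higher (0.605%) and 22 lower (0.512%), and WD+F+CCl4 mice in 103 (2.40%), 40 higher (0.931%) and 63 lower (1.47%). Tnfrsf4 rose by 3.66 ± 0.44 in HFD+F+CCl4 (log2, SE, edgeR adjusted p = 0.000403) and by 2.83 ± 0.44 in WD+F+CCl4 (0.00271). Pdcd1 rose by 3.54 ± 0.81 (0.0464) and 3.59 ± 0.78 (0.0205), and Satb1 changed by -2.11 ± 0.41 (0.0171) and -2.99 ± 0.42 (0.00131) in the same order and by the same edgeR test. Without control replicate 1, which leaves 1 control mouse of 29 cells, most calls of both models were lost. Those of Tnfrsf4, Pdcd1 and Satb1 were among them in both models. As given above, a call lost in such a fit does not by itself show a smaller fold.

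Some genes passed in 1 model alone. Runx2, a Runt-family factor, passed in HFD+F+CCl4 (log2 fold change 3.20, edgeR adjusted p = 0.0464), at 36.3, 57.1 and 59.4 CPM there, 40.5, 50.8 and 45.8 CPM in the WD+F+CCl4 mice and 5.64 and 0 CPM in the controls. The values of the 2 models overlapped. Penk, the precursor of enkephalins, passed in HFD+F+CCl4 as well (edgeR adjusted p = 0.048), at 90.7, 0 and 229 CPM there, at most 11.4 CPM in the WD+F+CCl4 mice and 0 UMIs in the controls. Tox passed in WD+F+CCl4 (log2 fold change 2.82 ± 0.56, SE, edgeR adjusted p = 0.011) and missed the threshold in HFD+F+CCl4 (2.30 ± 0.58, 0.0663, edgeR), as did Lag3 (edgeR adjusted p = 0.0436 and 0.0743). Gzma, granzyme A, fell in WD+F+CCl4 (edgeR adjusted p = 0.0329), with 61 UMIs in the control and 1 UMI in the WD+F+CCl4 mice. The Gzma call was lost without any 1 of the control or WD+F+CCl4 mice (edgeR adjusted p up to 0.310), and that of Runx2 without any 1 of 5 mice, the 3 WD+F+CCl4 mice among them (up to 0.455, edgeR). Penk did not pass when control replicate 1 or the first or the second WD+F+CCl4 mouse was left out (edgeR adjusted p up to 0.555).

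Between the models, 0 of 4297 genes passed by edgeR (129 at an unadjusted p under 0.05) and 0 by DESeq2 (72 unadjusted). Tnfrsf4 was at 241 ± 83.7 CPM in HFD+F+CCl4 and 130 ± 32.0 CPM in WD+F+CCl4 mice (SD, n = 3 each), a log2 difference of -0.83 ± 0.29 (SE, edgeR adjusted p = 1.000). Icos, a costimulatory receptor, was at 272, 217 and 291 CPM in HFD+F+CCl4 and at 151, 112 and 101 CPM in WD+F+CCl4 mice (-1.01 ± 0.27, SE, edgeR adjusted p = 0.886). The Icos values did not overlap, but the difference did not pass over all genes.

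CD4 cells were then set against the CD8 T cells of the same livers, gated in the same way with at least 1 UMI of Cd8a or Cd8b1 and none of Cd4 (1782 cells). All 8 mice had at least 20 cells of both kinds. With mouse as a term, 158 of 5532 genes differed (2.86%, edgeR adjusted p under 0.05), 75 higher in CD4 cells (1.36%) and 83 lower (1.50%). With library size as the only scaling the split was 119 higher and 50 lower.

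Helper and costimulatory genes were higher in CD4 cells: 9 of 16 tested genes of activation and costimulation passed, 0 were lower, and the median was 0.79 beside -0.01 over all genes. Cd40lg was at 73.4 ± 40.4 CPM in CD4 and 4.44 ± 6.78 CPM in CD8 cells (SD, n = 8), higher in 8 of 8 mice (log2 difference 3.76 ± 0.39, SE, edgeR adjusted p = 7.56e-06). Tnfrsf4 was at 144 ± 104 and 20.5 ± 24.3 CPM, again higher in 8 of 8 mice (2.80 ± 0.31, SE, edgeR adjusted p = 1.86e-05). Icos (log2 difference 1.68), Tnfrsf18 (1.07), Ly6a (1.72), Cd44 (0.82), Cd28 (0.76), Itgb1 (0.85) and S100a4 (1.48) were the other members that passed, and of these Cd28 and Itgb1 lost the call when single mice were left out.

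Lineage factors differed too. Maf, a factor of cytokine expression in helper cells, was at 385 and 388 CPM in the CD4 cells of the control mice, 1815, 823 and 591 CPM in the HFD+F+CCl4 mice, and 307, 544 and 1879 CPM in the WD+F+CCl4 mice, against 68.4 and 228, then 260, 168 and 120, then 48.3, 31.6 and 308 CPM in their CD8 cells. It was higher in CD4 cells of each mouse (log2 difference 2.43 ± 0.20, SE, edgeR adjusted p = 8.18e-07), and its 2 highest CD4 values came from the 2 mice with high Ccl5. Zbtb7b was higher by 1.84 ± 0.23 (SE, edgeR adjusted p = 4.97e-05), Rora, a nuclear receptor of helper and innate lymphoid cells, by 2.07 ± 0.21 (6.07e-06, edgeR), and Gata3, the factor of T helper 2 cells, by 1.28 ± 0.16 (6.23e-05, edgeR), each in 8 of 8 mice. Asb2 (2.49), Podnl1 (2.44), Mmp9 (2.34), Tmem154 (2.21) and Ramp1 (2.12) were among the largest log2 differences as well.

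**Figure D5:**
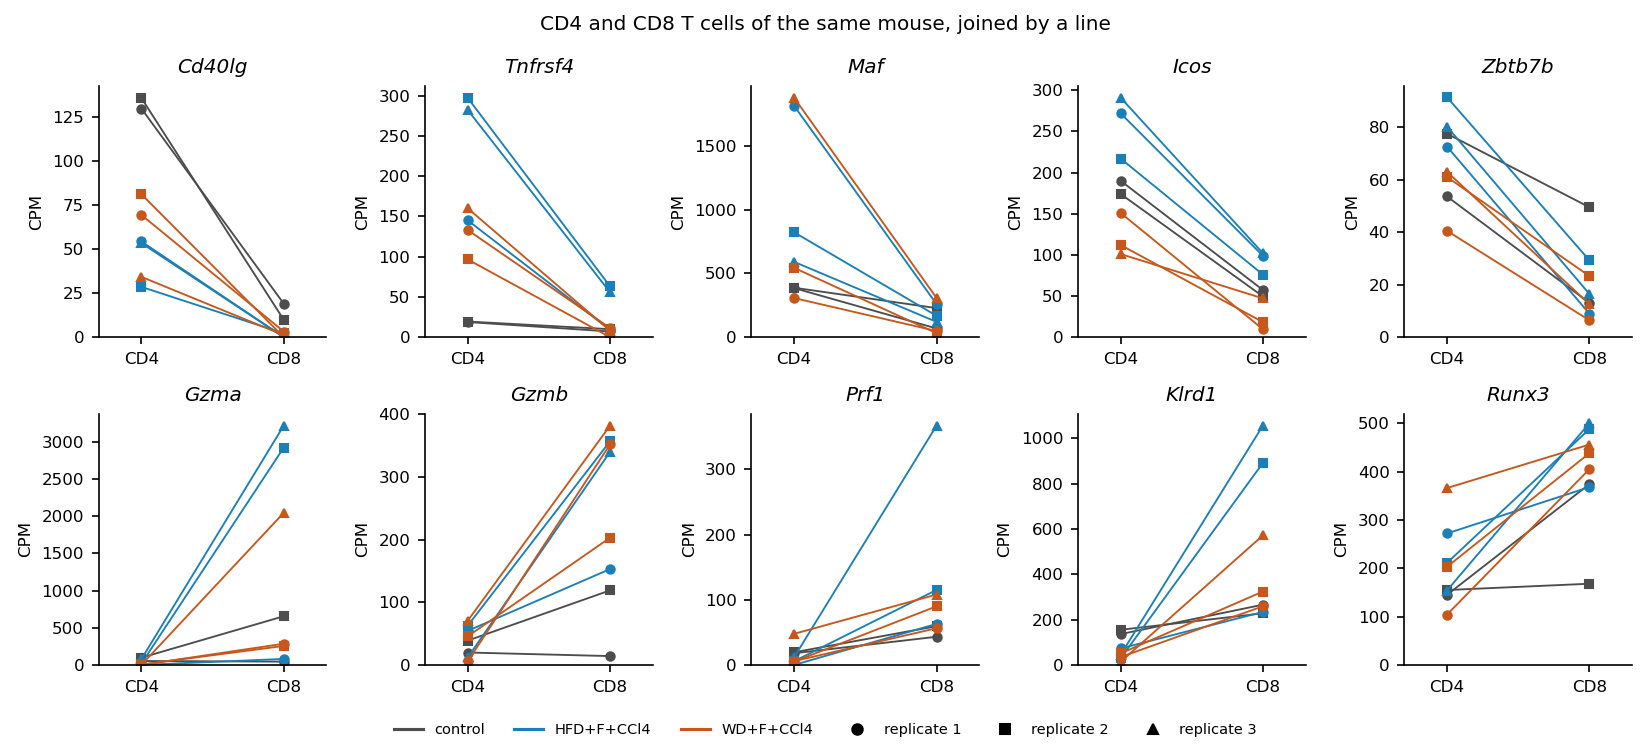
CPM of 10 genes in the CD4 and CD8 cells of each mouse, with lines that join the 2 kinds of cell of the same mouse, helper genes in the top row and cytotoxic genes with Runx3 below. Cd40lg is higher in CD4 cells in 8 of 8 mice and Gzma is higher in CD8 cells in 7 of 8.

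Cytotoxic genes were lower in CD4 cells, with 4 of 11 tested genes passing (Gzma, Gzmb, Prf1 and Nkg7), 0 higher, and a median of -1.64. Gzma was at 31.1 ± 39.1 CPM in CD4 and 1187 ± 1328 CPM in CD8 cells (SD, n = 8), lower in 7 of 8 mice (log2 difference -4.91 ± 0.74, SE, edgeR adjusted p = 0.000479). Gzmb, granzyme B, differed by -2.54 ± 0.36 (SE, edgeR adjusted p = 0.000248) and Prf1, perforin, by -2.56 ± 0.37 (0.000303, edgeR), the latter lower in 8 of 8 mice. Nkg7 did not pass when the second or the third HFD+F+CCl4 mouse, or the first or the second WD+F+CCl4 mouse, was left out (edgeR adjusted p up to 0.106). Ccl5 did not pass (-1.60, edgeR adjusted p = 0.0518). Runx3, the factor that opposes Zbtb7b in the CD8 lineage, was lower in 8 of 8 mice (-1.21 ± 0.18, SE, edgeR adjusted p = 0.000369).

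Recirculation genes were lower in CD4 cells in 3 of 13 tested, among them Dapl1 (log2 difference -2.82 ± 0.31, SE, edgeR adjusted p = 1.41e-05) and Foxp1 (-0.56 ± 0.14, 0.0420, edgeR), each lower in 8 of 8 mice. The Foxp1 call was lost on leaving out any of 6 of the 8 mice, that is each mouse other than HFD+F+CCl4 replicate 3 and WD+F+CCl4 replicate 3 (edgeR adjusted p up to 0.140). Satb1 (-0.26, edgeR adjusted p = 0.599) and Tcf7 (-0.10, 0.942, edgeR) did not pass. No checkpoint gene of 7 tested did, with a median of -0.16, nor did any hepatocyte (8 tested, median -0.11) or myeloid gene (8 tested, median -0.20). Of the other marker lists, Ikzf2, a marker of regulatory T cells, was higher in CD4 cells of 8 of 8 mice (log2 difference 1.55 ± 0.19, SE, edgeR adjusted p = 4.5e-05), as was Mki67 of cycling cells (1.04 ± 0.26, 0.0388, edgeR), and Klrd1 (-3.13 ± 0.41, 9.65e-05, edgeR) and Klre1 (-3.28 ± 0.61, 0.00420, edgeR) of NK cells were lower. S100a8 of neutrophils was lower too (-1.71 ± 0.46, SE, edgeR adjusted p = 0.0487). Single mice ended the calls of Mki67 (any of 4 mice, edgeR adjusted p up to 0.116) and S100a8 (any of 6, up to 0.163), and 0 of 4 erythroid genes passed, all 4 with values above 0 (median 1.01).

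Whether the NASH change itself differed between CD4 and CD8 cells was tested by the interaction of kind of cell and condition, in a comparison added after the data were seen. It passed for 39 of 8050 genes (0.484%, edgeR adjusted p under 0.05), 9 higher (0.112%) and 30 lower (0.373%) in the CD4 change. Cd160 fell in CD4 cells as given above but was at 39.2 and 149 CPM in the CD8 cells of the control mice, 35.9, 138 and 156 CPM in the HFD+F+CCl4 mice, and 78.8, 110 and 212 CPM in the WD+F+CCl4 mice. The difference of changes was -4.52 ± 0.45 (log2, SE, edgeR adjusted p = 1.05e-06).

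Innate receptors and cytotoxic genes were among the others with the lower change in CD4 cells, such as Klre1 (-6.71), Gzma (-5.79), Klrc1 (-4.72), Xcl1 (-4.15), Fasl (-3.49), Klrd1 (-3.11) and Cxcr6 (-2.03), with 3 genes of the gamma chain locus, Tcrg-C2 (-5.72), Tcrg-C4 (-5.84) and Trgv2 (-5.72). Klre1 had 0 UMIs in the CD4 cells of HFD+F+CCl4 replicates 1 and 2 and WD+F+CCl4 replicates 1 and 3. Gzma had 0 UMIs in those of HFD+F+CCl4 replicate 1 and WD+F+CCl4 replicates 1 and 3. The sizes of both differences thus rest partly on values of 0. Cxcr6 was at 120 and 287 CPM in the CD8 cells of the controls and at 158 to 571 CPM in those of NASH mice. Genes with the higher change in CD4 cells included Gprin3 (3.33), Gpr183 (2.97), a receptor for oxysterols, Tnfsf8 (2.71) and Il7r (2.27). No such difference passed for Pdcd1 (-1.07, edgeR adjusted p = 1.000), Tox (0.07, 1.000), Tnfrsf4 (1.78, 0.948) or Satb1 (-0.23, 1.000). Without control replicate 1 the call of Cd160 held and the other 21 named genes lost theirs.

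Foxp3 cells, the regulatory T cells, were too few in most mice, and 3 mice (control replicate 1 and HFD+F+CCl4 replicates 2 and 3) had at least 20 of both kinds. Of 2738 genes, 79 differed (2.89%, edgeR adjusted p under 0.05), 39 higher in conventional CD4 cells (1.42%) and 40 lower (1.46%), and DESeq2 gave 22. The 3 markers of regulatory T cells other than Foxp3 were all lower. Ikzf2, which encodes Helios, was at 167, 468 and 223 CPM in conventional and 1979, 1685 and 2153 CPM in Foxp3 cells (log2 difference -2.89 ± 0.26, SE, edgeR adjusted p = 1.85e-05). Ctla4 was at 14.1, 51.4 and 74.2 against 299, 243 and 359 CPM (-2.94 ± 0.38, SE, edgeR adjusted p = 0.000446), and Il2ra, the alpha chain of the interleukin 2 receptor, was lower by -1.41 (0.0113, edgeR).

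All 3 cytotoxic genes that could be tested were higher in the conventional cells, Nkg7 (log2 difference 3.00), Xcl1 (2.66) and Ccl5 (2.19), where Ccl5 was at 1566, 2673 and 2937 CPM against 722, 395 and 460 CPM. Of 7 liver residency genes tested, 2 were higher, Cxcr6 and the integrin chain Itgal (edgeR adjusted p = 0.00412), and 2 lower, the integrin chain Itgae (log2 difference -3.83 ± 0.53, SE, edgeR adjusted p = 0.000916) and Prdm1, the factor Blimp-1 (-1.83 ± 0.42, 0.0272, edgeR), with a median of 0.11. Cxcr6 was at 755, 428 and 496 CPM in conventional cells and 0, 106 and 122 CPM in Foxp3 cells (2.88 ± 0.47, SE, edgeR adjusted p = 0.00342), and Ly6c2, a surface protein of effector cells, at 460, 240 and 208 against 10.3, 0 and 6.77 CPM (5.49 ± 0.49, SE, edgeR adjusted p = 1.85e-05). Tnfrsf4 was lower in conventional cells, at 18.8, 297 and 282 CPM against 340, 622 and 955 CPM (-2.08 ± 0.36, SE, edgeR adjusted p = 0.00374). Without control replicate 1, 10 of the 30 named genes kept their call, Ikzf2, Ctla4, Cxcr6, Ly6c2, Nkg7, Ccl5 and Tnfrsf4 among them.

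Within the CD4 cells, those with a Cxcr6 UMI were compared with those without in the 6 mice that had at least 20 of both, a comparison also added after the data were seen. Apart from Cxcr6, which chose the cells, 6 of 1747 genes differed (0.343%, edgeR adjusted p under 0.05), and all 6 had the same direction in 6 of 6 mice. Tcf7, the factor of naive and stem-like memory T cells, was at 89.5 ± 43.1 CPM with and 301 ± 226 CPM without Cxcr6 (SD, n = 6, log2 difference -1.75 ± 0.30, SE, edgeR adjusted p = 0.00899). Slamf6, a receptor of the same state, was lower by -1.66 ± 0.25 (SE, edgeR adjusted p = 0.00222), and Tnfrsf4 by -1.34 ± 0.20 (0.00222, edgeR), at 99.4 ± 66.0 against 249 ± 198 CPM.

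Id2, an inhibitor of E protein transcription factors, was higher with Cxcr6 (log2 difference 0.91 ± 0.17, SE, edgeR adjusted p = 0.0172), as were Ctsw, a cathepsin of cytotoxic cells (0.90 ± 0.18, 0.0301, edgeR), and Tmem176b, an ion channel-like membrane protein (1.21 ± 0.23, 0.0172, edgeR). Cells with a Cxcr6 UMI were deeper in 7 of 8 mice, for example 3270 against 2585 median UMIs in control replicate 1. After thinning to 800 UMIs, 0 of 875 genes passed, but more than depth had changed. Cells moved between the 2 kinds, with 121 cells with a Cxcr6 UMI in control replicate 1 instead of 187. HFD+F+CCl4 replicate 2 and WD+F+CCl4 replicate 1 had 18 and 11 such cells, under the minimum of 20. Only 2 of the 6 genes could be tested, so the part of depth in the 6 differences was not tested. Without control replicate 1, 2 genes passed, and without WD+F+CCl4 replicate 2, 2 passed (Slamf6 and Tnfrsf4), with Tcf7, Id2, Ctsw and Tmem176b lost.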

How the data were processed

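Livers were perfused and dissociated with collagenase IV, papain and DNase I, and single-cell libraries were sequenced by the authors (10x Genomics 3', bcl2fastq 2.20, Cell Ranger, GRCm38). The deposited matrix holds raw UMI counts of 55450 genes in 88581 barcodes, with the mouse given by the barcode suffix, and was not normalised by the authors. Cells with over 500 genes and under 25% mitochondrial UMIs were kept and gated on raw counts. Members and gene lists were chosen with earlier results of these data known. Doublets were marked by the highest Scrublet scores per library (scanpy 1.11.5) and kept in the main result.

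Counts were summed per mouse and kind of cell and tested with edgeR 4.0.16 (R 4.3.3; quasi-likelihood, TMM, minimum count 10, Benjamini-Hochberg adjustment), with the 8 mice and 3 groups in 1 fit and, for pairs of cell kinds, a mouse term. Gate genes, and Cxcr6 where it chose the cells, were left out before adjustment. Paired comparisons used mice with at least 20 cells of both kinds. Named genes were the 8 largest rises and falls past the threshold with an average log2 CPM over 5, without gate, mitochondrial and predicted genes, together with every list member that passed, and list members for their levels. Runx2 was among these. Some genes, and 2 planned shares and 1 comparison that need 1 of them, are not reported here. Shares were compared by exact two-sided permutation tests (scipy 1.17.1). In data simulated for NASH against control, 78.4% of changed and tested genes with a fold of 4 were recovered. The simulation gave every gene the same dispersion of 0.1 and changed no gene of low count. It thus does not give the share recovered among genes that vary more between mice. Alternatives were DESeq2 1.42.0, other scalings, filters and gates, thinning, and leaving out each mouse.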

Additional observations from a re-analysis of the deposited data

Results flagged for a closer look

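Among 46 values checked over the 6 NASH mice, 11 had 1 mouse far from the others by Dixon's test. For independent and normally spread values chance gives about 1 in 20, or 2.3. Here 9 of the flagged genes came from the same library, and Cyp2e1 and Mug1 rest on 1 UMI against 0. The 11 therefore cannot be set against 2.3. The share of CD4 cells among CD3 cells was 15.8% in WD+F+CCl4 replicate 3 and 4.66% to 7.69% in the others. HFD+F+CCl4 replicate 1, with 21 CD4 cells, stood apart in 9 of the remaining genes. It was the highest for the macrophage genes C1qa (399 CPM against 5.79 to 149 CPM in the other NASH mice), C1qb (472 against 28.9 to 166 CPM) and C1qc (381 against 17.4 to 122 CPM), and for Spp1, osteopontin (218 against 23.8 to 76.3 CPM). It was also the highest for the hepatocyte genes Cyp2e1 (18.1 CPM, which is 1 UMI, against 0), Fgb (72.6 against 0 to 11.4 CPM) and Apoa1 (145 against 5.08 to 45.7 CPM), and for Zbtb16 (36.3 against 0 to 8.91 CPM). It was the lowest for S100a4 (817 against 1296 to 1488 CPM). Mug1 was at 2.97 CPM, or 1 UMI, in HFD+F+CCl4 replicate 3 and at 0 in the other NASH mice.

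The change from control to NASH differed between CD4 and CD8 cells for 7 genes that were also named in the comparison of CD4 cells, by the edgeR interaction test at an adjusted p under 0.05. The difference of log2 changes was -4.52 for Cd160, -4.15 for Xcl1, -3.11 for Klrd1, -2.03 for Cxcr6 and -1.68 for Il2rb, and it was 3.33 for Gprin3 and 2.71 for Tnfsf8. Without control replicate 1 the call held for Cd160 and was lost for the other 6.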

How the results depend on the processing

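The count of called genes for NASH against control (132) was 63 with DESeq2, 332 with no filter on low counts, 41 after thinning, 15 without cells with myeloid or hepatocyte UMIs, 54 in CD4 cells with a Cxcr6 UMI, 265 without the 2 libraries with high Ccl5, and 9 to 179 with single mice left out. For HFD+F+CCl4 against control (48) it was 30 with DESeq2, 173 with no filter, 115 with over 1000 genes per cell, 17 after thinning, 74 without doublets, 10 without cells with myeloid or hepatocyte UMIs, and 3 to 95 with single mice left out. For WD+F+CCl4 against control (103) the same settings gave 63, 280, 170 and 41, with 10 without cells with myeloid or hepatocyte UMIs and 7 to 151 with single mice left out. Between the models (0) there were 20 with no filter, 1 without cells with myeloid or hepatocyte UMIs, and 0 to 1 with single mice left out. CD4 against CD8 cells (158) gave 452 with no filter, 45 with no mouse term, 49 after thinning and 79 to 167 with single mice left out. CD4 against Foxp3 cells (79) gave 22 with DESeq2, 168 with no filter, 8 with no mouse term, 0 after thinning and 17 to 148 with single mice left out. Cells with and without Cxcr6 (6) gave 67 with no filter, 1 with no mouse term, 0 after thinning and 2 to 17 with single mice left out. The difference in NASH change (39) gave 18 with DESeq2, 82 with no filter and 1 to 79 with single mice left out.

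The settings above differ in the number of genes tested, so their counts are not shares of the same genes. For NASH against control, 4297 genes were tested in the main result, 1414 after thinning and 17673 with no filter. With the replicate block the counts were 31 for NASH, 13 for HFD+F+CCl4 and 24 for WD+F+CCl4 against control, and 0 between the models. Deviations from the group means had correlations of -0.29 to 0.12 between same-numbered mice and of -0.23 to 0.31 between the others. Taking means of such small groups constrains these values. They therefore cannot show whether same-numbered mice were handled together.

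The difference in the share of kept cells, NASH minus control, ran from -1.98 to 0.213 percentage points with single mice left out, with the last value without control replicate 1. The share of CD4 plus CD8 cells reversed to 1.29 with a minimum of 2 Cd4 UMIs. For named genes, Lef1 reversed to 0.11 without control replicate 1 and was -1.91 without control replicate 2. The cause of these changes was not tested. Gzma in WD+F+CCl4 against control was at 1.81 without cells with myeloid or hepatocyte UMIs, where 1 control mouse of 22 cells was left and the WD+F+CCl4 mice had at most 1 Gzma UMI in all, so that no direction can be read from it.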

Other observations

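Helper lineage genes too low for the test were uneven between mice. Il17a, the cytokine of T helper 17 cells, was at 20.3 CPM in WD+F+CCl4 replicate 2, at 2.97 CPM in HFD+F+CCl4 replicate 3 and at 0 UMIs in the other 6.

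Of the follicular helper list, Cxcr5 and Il21 were highest in WD+F+CCl4 replicate 3. Cxcr5 was at 93.5 CPM and Il21 at 55.3 CPM, against at most 5.71 and 11.9 CPM in the other 7 mice. Among the other members of this list, 3 were tested for NASH against control and 0 passed (median log2 fold change 0.13). Il4, the T helper 2 cytokine that NKT cells also make, was at 52.7 and 58.1 CPM in the control mice, where the latter is 3 UMIs, and at 0 to 18.1 CPM in the NASH mice. Il13 had 1 UMI in all, in control replicate 1. None of Il17a, Cxcr5, Il21, Il4 and Il13 passed the filter on low counts, and no test was made of them.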
